A study of Rattus norvegicus with 30 samples.

Results

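The comparison described here set tofu as the only protein source against casein in the rat liver. It used 10 of the 30 arrays of the study, 5 from animals on the tofu diet (T20) and 5 from animals on the casein diet (C), chosen by the diet named in the labels. All animals were male Sprague-Dawley rats that arrived at 4 weeks of age, spent 5 days on a commercial diet and then 14 days on 1 of 6 experimental diets, each with 200 g/kg of protein. In C the protein was casein, the main protein of milk, and no isoflavone was added. In T20 the protein came from freeze-dried tofu, a dried soybean curd that also brings isoflavones. Both groups were free-fed, and no further diet composition was used. The other diets were casein with isoflavones at the T20 level (CI), soy protein without (S) or with (SI) added isoflavones, and 100 g/kg of protein each from casein and tofu (T10). Each array held the RNA of 1 liver, and the 5 arrays of a diet are biological replicates by their titles.

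Values are log2 intensities of Affymetrix probe sets, and a difference is T20 minus C with its standard error (SE), n = 5 livers in each group. A gene was represented by its brightest tested probe set, and "rose" or "fell" means an adjusted p under 0.05 by limma with Benjamini-Hochberg adjustment over 18625 probe sets. Of these, 839 (4.5%) differed, 328 (1.76%) higher and 511 (2.74%) lower. The split moved with scaling: median centring of the arrays gave 183 higher and 523 lower, and giving all arrays one median and one spread gave 830 higher and 398 lower. The latter scaling also moved the median of the hepatocyte markers from 0.00 to 0.35. The number called was 389 without T20 replicate 1 or C replicate 3, 421 without T20 replicate 2, 516 without C replicate 5 and 213 when the fit held just the T20 and C arrays. Of the 839, 377 were retained without T20 replicate 1, 380 without C replicate 3, 407 without T20 replicate 2, 488 without C replicate 5 and 191 in the fit of T20 and C. Over the 10699 genes, 520 (4.86%) differed, of which 242 (2.26%) rose and 278 (2.6%) fell, 21.6% had an unadjusted p under 0.05, and the median difference was 0.001. The groups did not overlap in 5.14% of genes, with all T20 livers above C in 257 (2.4%) and below in 293 (2.74%). Array medians lay between 228.4 and 250.7, and GAPDH probe sets, which track RNA breakdown, read 1.01 to 1.19 times brighter at the 3' end than at the 5' end in C and 1.04 to 1.23 times in T20. The same ratio for beta-actin was higher, 2.21 to 2.65 in C and 1.91 to 2.83 in T20, and the groups overlapped in both. The hepatocyte markers were bright in both groups, *Alb* (albumin) at 16.6 ± 0.14 in C and 16.55 ± 0.12 in T20 (mean ± SD), and 0 of the 11 measured differed by limma, with 1 at an unadjusted p under 0.05.

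The liver turns surplus dietary carbohydrate into fat. Citrate leaves the mitochondria and is split to acetyl-CoA, which acetyl-CoA carboxylase and fatty acid synthase build into palmitate with NADPH from malic enzyme and the pentose phosphate pathway; desaturases and elongases then shape the product. The transcription factors SREBP-1c (*Srebf1*), ChREBP (*Mlxipl*) and LXR (*Nr1h3*) are known to drive these genes, and LXR also drives the sterol exporter of the bile canaliculus. In the livers of the tofu group 11 of 21 genes of fatty acid synthesis and 4 of 12 of desaturation and elongation fell, against 2.6% of all genes. The gene lists were chosen with earlier results of these data known, so a list share is a description and no test. The 2 genes of the sterol exporter rose. So did 5 of 16 pericentral, 4 of 36 xenobiotic oxidation and 4 of 23 methionine and one-carbon genes, against 2.26% of all genes. Of cell cycle genes 10 of 37 fell. In the fit of T20 and C, 6 genes of fatty acid synthesis, 4 of desaturation and elongation and 3 of the cell cycle fell. That fit left 2 pericentral, 2 xenobiotic oxidation and 1 methionine and one-carbon gene higher.

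**Figure D1:**
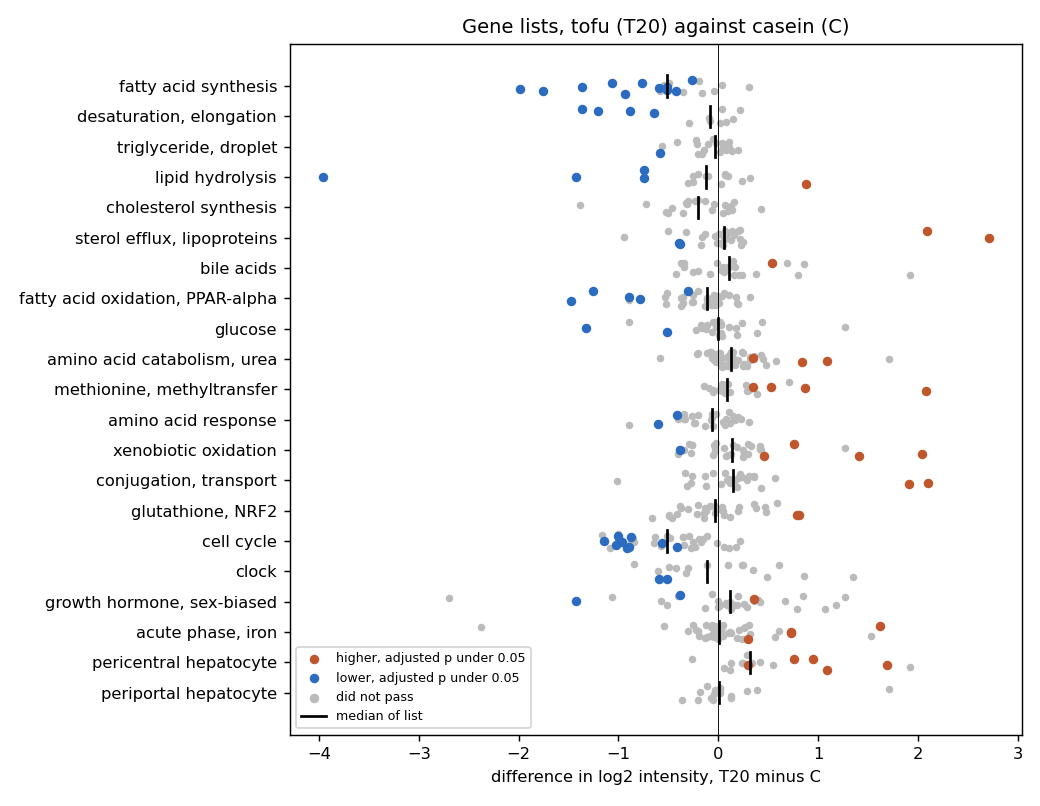
Difference in log2 intensity between T20 and C (horizontal axis) for every measured gene of 21 gene lists (rows), 1 point per gene, with a bar at the median of each list. Points in orange rose and points in blue fell at an adjusted p under 0.05 by limma, and grey points did not pass. Of fatty acid synthesis genes 11 of 21 and of cell cycle genes 10 of 37 fell, against 2.6% of all genes. Of pericentral genes 5 of 16 rose, against 2.26% of all genes. The lists were chosen with earlier results of these data known.

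Of the 21 measured genes of fatty acid synthesis, its NADPH supply and its regulators, 11 fell and 0 rose, against 2.6% of all genes lower, and the list median was -0.51. The groups did not overlap in 11 of the 21, against 5.14% of all genes. *Fasn*, fatty acid synthase, was 14.01, 14.23, 13.51, 13.02 and 13.49 in C replicates 1 to 5 and 11.92, 11.99, 12.14, 11.18 and 11.12 in T20 replicates 1 to 5. The T20 livers were all lower, and replicates 4 and 5 were the lowest. The difference was -1.99 ± 0.47 (3.96-fold lower, adjusted p = 0.0144). A second *Fasn* probe set differed by -2.22 ± 0.41.

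*Acly*, ATP citrate lyase, which makes cytosolic acetyl-CoA, was 14.24 to 14.84 in C with a median of 14.73 and 13.61, 13.87, 13.61, 12.83 and 12.42 in T20, again lowest in T20 replicates 4 and 5. It fell by 1.37 ± 0.29 (2.58-fold, adjusted p = 0.00667). The carboxylase genes fell together. *Acaca*, the isoform that serves synthesis, was 11.92 to 12.37 in C and 10.76 to 11.38 in T20, a difference of -1.06 ± 0.18 (adjusted p = 0.00128). *Acacb*, whose malonyl-CoA restrains fatty acid entry into mitochondria, was 8.38, 8.53, 9.27, 8.84 and 9.07 in C and 7.39, 7.86, 7.78, 8.18 and 8.21 in T20, a difference of -0.93 ± 0.18 (adjusted p = 0.00295). The groups were close but did not overlap.

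Of the 3 NADPH-producing enzymes measured in the list, *Me1* and *Pgd* fell and *Idh1*, cytosolic isocitrate dehydrogenase, differed by -0.16 ± 0.13 (adjusted p = 0.51). *Me1*, cytosolic malic enzyme, was 13.1, 12.44, 12.51, 12.67 and 12.79 in C and 11.28, 10.8, 11, 10.87 and 10.76 in T20. The ranges were more than 1 log2 unit apart, and the difference of -1.76 ± 0.19 was 3.39-fold (adjusted p = 3.09e-06). *Pgd*, 6-phosphogluconate dehydrogenase of the pentose phosphate pathway, lay between 12.55 and 12.7 in every C liver and between 11.58 and 12.04 in T20 (-0.76 ± 0.12, adjusted p = 0.000733). Of the regulators, *Mlxipl* fell from 10.22 to 10.63 in C to 9.39 to 10.11 in T20 (-0.59 ± 0.12, adjusted p = 0.0038; adjusted p = 0.0679 in the fit of T20 and C). *Srebf1* was 12.73 to 13.92 in C and 12.36 to 13.19 in T20, and the groups overlapped (-0.54 ± 0.36, adjusted p = 0.426). *Srebf2*, the cholesterol-directed relative, differed by -0.20 ± 0.13 and *Nr1h3* by 0.13 ± 0.11 (adjusted p = 0.435 and 0.542).

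The remaining 4 genes that fell were the citrate carrier *Slc25a1* (-0.42 ± 0.10), transketolase *Tkt* (-0.51 ± 0.13), liver pyruvate kinase *Pklr* (-0.51 ± 0.14) and transaldolase *Taldo1* (-0.26 ± 0.07). Each of these smaller differences lost its call without at least 1 array: *Slc25a1* without T20 replicate 2 or C replicate 3 (adjusted p up to 0.0551), *Tkt* without T20 replicates 1, 2 or 5 or C replicates 2 or 3 (up to 0.0702), and *Pklr* and *Taldo1* without any one of 7 arrays (up to 0.12 and 0.143). The other 7 passed whichever array was left out. The list count was 7 without T20 replicate 2 or C replicate 3 and 6 in the fit of T20 and C. After scaling to equal median and spread 7 fell and 1 rose, and the median was -0.29. *Thrsp*, the lipogenic Spot 14 protein, differed by -0.54 ± 0.23 (adjusted p = 0.163).

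**Figure D2:**
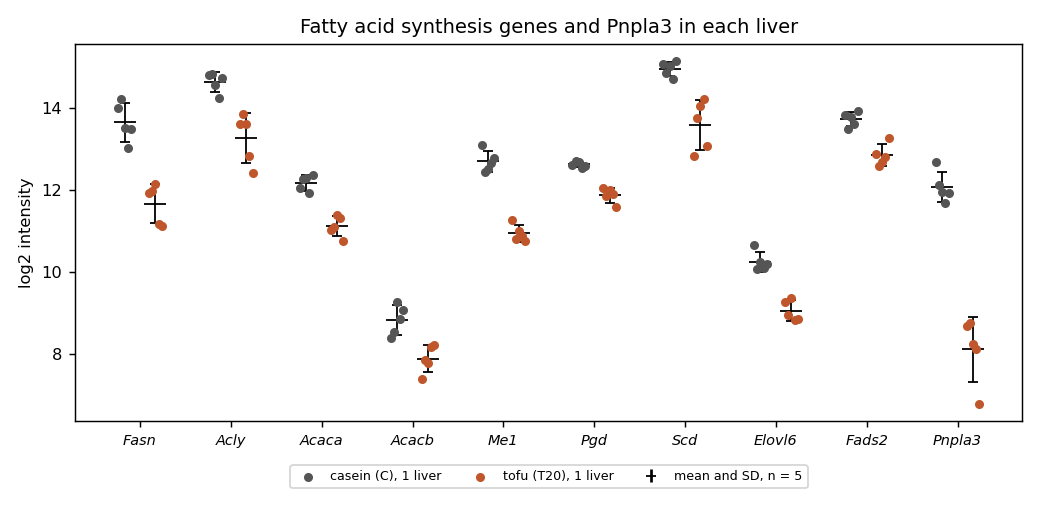
Log2 intensity (vertical axis) of 10 genes in each of the 5 C livers (grey) and 5 T20 livers (orange), with bars for the mean and SD. The groups do not overlap for any of these genes, which the naming rule required of all but *Acacb*, *Pgd* and *Fads2*. The gap is widest for *Pnpla3*, at 11.68 to 12.68 in C and 6.78 to 8.76 in T20.

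Among the 12 measured desaturases, elongases and partner enzymes, 4 fell, against 2.6% of all genes, and 0 rose. The list median was -0.09 (0.13 with equal median and spread, where 3 fell). *Scd*, stearoyl-CoA desaturase, which makes oleate, was 14.72 to 15.15 in C and 12.84, 13.75, 14.06, 14.22 and 13.08 in T20. T20 replicates 1 and 5 were more than 1 log2 unit below the highest T20 liver, and the spread in T20 (SD 0.6) exceeded that in C (SD 0.17). The difference was -1.37 ± 0.28 (2.59-fold, adjusted p = 0.0055). *Elovl6*, which extends palmitate to stearate, was 10.67, 10.07, 10.24, 10.1 and 10.19 in C and 9.27, 8.96, 9.37, 8.83 and 8.85 in T20 (-1.20 ± 0.24, adjusted p = 0.00491). The delta-6 and delta-5 desaturases of polyunsaturated fatty acid synthesis, *Fads2* and *Fads1*, fell by 0.88 ± 0.16 and 0.64 ± 0.15 (adjusted p = 0.00258 and 0.0146), with no overlap of the groups in either. The call of *Fads1* was lost with equal median and spread (adjusted p = 0.291). The elongases for longer chains differed little, *Elovl2* by -0.29 ± 0.17 and *Elovl5* by -0.08 ± 0.08 (adjusted p = 0.352 and 0.614).

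The strongest single difference was in *Pnpla3*, a lipid droplet protein of the patatin-like phospholipase family. It was 12.68, 12.13, 11.96, 11.68 and 11.93 in C and 8.68, 8.76, 8.24, 8.12 and 6.78 in T20. Every T20 liver was more than 2 log2 units below every C liver, and T20 replicate 5 was lowest. The difference was -3.96 ± 0.47, or 15.6-fold (adjusted p = 1.07e-05), and the other 2 probe sets differed by -4.29 ± 0.50 and -2.66 ± 0.35. The bases just before its start site in the RefSeq annotation of GRCr8, chr7:117173378-117173527 on the plus strand, are shown because the gene led the comparison; capitals mark CCAAT boxes on the opposite strand, which read ATTGG here.
Pnpla3: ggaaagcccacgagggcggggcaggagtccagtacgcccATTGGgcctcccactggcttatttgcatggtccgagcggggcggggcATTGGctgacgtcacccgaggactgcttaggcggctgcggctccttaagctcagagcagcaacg
A CCAAT box on either strand stands in 34.0% of 33469 RefSeq promoters of 250 bases, and 2 or more in 9.42%. A match is a description of these letters only.

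Pnpla3 stood in a list of 17 measured lipid hydrolases. Of these, 4 fell and 1 rose, against 2.6% and 2.26% of all genes (median -0.12, and 0.07 with equal median and spread). *Ddhd1*, a phospholipase that acts on phosphatidic acid, was 10.74, 10.19, 10.27, 10.58 and 10.69 in C and 8.96, 9.16, 8.96, 9.34 and 8.93 in T20 (-1.43 ± 0.20, adjusted p = 0.000119). Its relative *Ddhd2* was 9.02 to 9.4 in C and 8.35 to 8.52 in T20 (-0.74 ± 0.14, adjusted p = 0.00243). Both ranges in T20 were narrow and lay below all C livers. *Mgll*, monoacylglycerol lipase, fell by 0.74 ± 0.13 (adjusted p = 0.00153), although T20 replicate 3 at 11.17 lay above C replicate 5 at 11.13. *Ces1d*, a carboxylesterase that hydrolyses stored triglyceride, went the other way, at 13.06 to 13.5 in C and 13.81 to 14.57 in T20 (0.88 ± 0.16, adjusted p = 0.00251). *Pnpla2*, the main triglyceride lipase, differed by 0.24 ± 0.28 (adjusted p = 0.668).

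In the 20 genes of triglyceride assembly and the lipid droplet, 1 fell, against 2.6% of all genes, and 0 rose, with a median of -0.03. The gene that fell was *Plin3*, a droplet coat protein, at 10.94 to 11.19 in C and 10.11 to 10.68 in T20 (-0.58 ± 0.13, adjusted p = 0.0103). *Gpam*, which starts glycerolipid synthesis, differed by -0.56 ± 0.22 and the droplet coat gene *Plin2* by -0.41 ± 0.25 (adjusted p = 0.139 and 0.368). Neither passed.

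The genes of the sterol exporter rose. ABCG5 and ABCG8 are half-transporters that pair to move cholesterol and plant sterols into bile, and their genes lie head to head. *Abcg8* was 6.08, 6.14, 6.68, 7.51 and 7.67 in C and 9.72, 8.23, 9.69, 9.73 and 10.27 in T20. *Abcg5* was 7.95, 8.21, 8.38, 8.74 and 9.08 in C and 10.46, 9.68, 10.74, 10.75 and 11.16 in T20. No liver of one group reached the other for either gene, and T20 replicate 2 was the lowest T20 liver for both. *Abcg8* rose by 2.71 ± 0.42, 6.55-fold (adjusted p = 0.000484), and *Abcg5* by 2.09 ± 0.35, 4.25-fold (adjusted p = 0.00105). The C mean of *Abcg8*, 6.82, lay below the level of 7.388 used to filter dim probe sets. The 205 bases between the RefSeq start sites are chr6:15717731-15717935 of GRCr8 on the plus strand. They are shown because both genes rose and lie on either side of them. The part of these bases in the rise was not tested. Capitals mark the single CCAAT box, read as ATTGG.
Abcg8-Abcg5: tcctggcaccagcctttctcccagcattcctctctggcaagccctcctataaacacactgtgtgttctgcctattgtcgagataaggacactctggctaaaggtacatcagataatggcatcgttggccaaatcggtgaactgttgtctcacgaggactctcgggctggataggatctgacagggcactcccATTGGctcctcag

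Of the other 28 genes of sterol efflux and lipoproteins, 0 rose and 2 fell, against 2.26% and 2.6% of all genes. The median over the list of 30 was 0.06. *Mttp*, which loads lipid onto apolipoprotein B, was 13.01 to 13.28 in C and 12.6 to 12.92 in T20 (-0.38 ± 0.08, adjusted p = 0.00833), and this small difference was lost with equal median and spread (adjusted p = 0.356) and in the fit of T20 and C (0.0608). *Tm6sf2*, needed for lipid loading of very low density lipoprotein, differed by -0.39 ± 0.11 (adjusted p = 0.0493), which was lost without any one of 7 arrays (adjusted p up to 0.148). *Apob* itself was 14.28 to 15.31 in C and 14.05 to 14.47 in T20 (-0.50 ± 0.19, adjusted p = 0.134). *Abca1*, which exports cholesterol to high density lipoprotein and like the ABCG pair is a known LXR target, was 11.15 to 11.91 in C and 10.85, 9.61, 10.88, 9.49 and 11.6 in T20 (-0.94 ± 0.48, adjusted p = 0.272). The median of T20 was lower, with wide spread.

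In cholesterol synthesis 0 of 21 genes passed by limma, 6 had an unadjusted p under 0.05, against 21.6% of all genes, and the median was -0.20. After quantile normalization 3 were lower. *Insig1*, a sterol-responsive brake on SREBP processing, was 13.38 to 14.46 in C but 14.1, 12.34, 13.9, 11.57 and 11.47 in T20. T20 replicates 1 and 3 were within the C range and the other 3 were below it, and the difference of -1.39 ± 0.43 did not pass (adjusted p = 0.0602). It passed without T20 replicate 1, T20 replicate 3 or C replicate 4 (lowest adjusted p 0.0245). *Stard4*, *Fdps* and *Lss* differed by -0.50 ± 0.16, -0.52 ± 0.20 and -0.72 ± 0.29 (adjusted p = 0.0629, 0.125 and 0.154). The summed intensity of the list was 130880 to 137922 in C and 82226 to 162849 in T20, so the T20 livers spread to both sides of the C range.

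Bile acid synthesis is the main route by which the liver disposes of cholesterol. Of 24 genes 1 rose, against 2.26% of all genes, with a median of 0.10. An unadjusted p under 0.05 by limma was found in 8, against 21.6% of all genes, and 5 rose after scaling to equal median and spread. *Cyp7a1*, the rate-limiting enzyme, was 8.34, 8.89, 8.61, 10.51 and 9.11 in C and 13.27, 10.96, 10.45, 9.02 and 11.36 in T20. T20 replicate 1 was the highest of the 10 livers, T20 replicate 4 lay inside the C range, and C replicate 4 lay above T20 replicates 3 and 4. The difference of 1.92 ± 0.59 did not pass (adjusted p = 0.0566); it passed without T20 replicate 4 or C replicate 4 (lowest adjusted p 0.0161), with equal median and spread (0.0421) and with a 60th percentile filter (0.0463). *Cyp8b1*, which sets the share of cholic acid, differed by 0.21 ± 0.19, the bile acid receptor gene *Nr1h4* by -0.42 ± 0.13 and *Nr0b2*, its repressor target, by 0.80 ± 0.60 (adjusted p = 0.572, 0.0616 and 0.484). The gene that rose was *Amacr*, a racemase of peroxisomal bile acid side-chain oxidation, at 13.58 to 14.02 in C and 13.91 to 14.52 in T20 (0.54 ± 0.13, adjusted p = 0.0186), and it was lost without T20 replicate 1 or C replicate 3 (adjusted p up to 0.067).

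**Figure D3:**
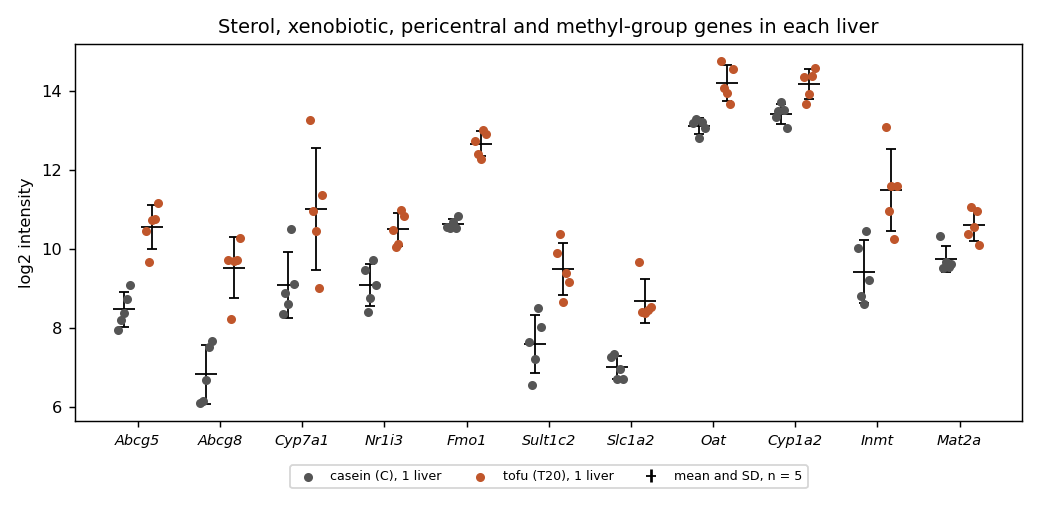
Log2 intensity (vertical axis) of 11 genes of sterol export, bile acid synthesis, drug metabolism, the pericentral zone and methyl transfer in each C liver (grey) and T20 liver (orange), with bars for the mean and SD. The groups are apart for *Abcg5*, *Abcg8*, *Fmo1*, *Nr1i3*, *Sult1c2*, *Slc1a2* and *Oat*, which the naming rule required of all these but *Oat*. *Cyp7a1*, *Cyp1a2*, *Inmt* and *Mat2a* overlap in at least 1 liver.

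Fatty acid oxidation and the targets of PPAR-alpha, the receptor that raises it in fasting, gave 5 of 37 genes lower, against 2.6% of all genes, and 0 higher, with a median of -0.11 (0.0 with equal median and spread). *Pdk4*, a kinase that shuts off pyruvate dehydrogenase, was 12.1, 12.0, 11.92, 11.98 and 12.47 in C and 10.12, 10.57, 10.94, 11.26 and 10.17 in T20. *Angptl4*, a secreted inhibitor of lipoprotein lipase, was 13.57, 12.64, 13.1, 13.15 and 13.82 in C and 11.42, 12.04, 12.5, 12.09 and 11.96 in T20. All T20 livers were below all C livers for both, by 1.48 ± 0.30 and 1.25 ± 0.23 on average (adjusted p = 0.00448 and 0.00203). *Acot2*, a mitochondrial acyl-CoA thioesterase, fell by 0.78 ± 0.14 (adjusted p = 0.00156), its other probe sets giving -0.44 ± 0.22 and -0.99 ± 0.20 (adjusted p = 0.258 and 0.00453). The peroxisomal *Acot4* fell by 0.89 ± 0.21 (adjusted p = 0.015) and long-chain acyl-CoA dehydrogenase *Acadl* by 0.30 ± 0.08 (adjusted p = 0.0375). *Acot4* was lost without T20 replicate 1, C replicate 1 or C replicate 3 (up to 0.0577), and *Acadl* without any one of 6 arrays (up to 0.124) and with equal median and spread (0.942).

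The entry point of mitochondrial oxidation showed no such difference. *Cpt1a* was 12.96 to 13.79 in C and 12.77, 12.81, 12.78, 13.11 and 14.16 in T20, where replicate 5 stood apart (-0.25 ± 0.29, adjusted p = 0.673). *Ppara* was 7.6 to 8.42 in C and 7.84 to 8.66 in T20 (0.20 ± 0.18, adjusted p = 0.577). The list count was 3 without T20 replicate 1, C replicate 1 or C replicate 3 and in the fit of T20 and C, 9 after quantile normalization, and up to 7 with the other arrays left out.

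Glucose metabolism and insulin signalling had 2 of 27 genes lower, *Irs3* and *Pklr*, against 2.6% of all genes, and 0 higher (median -0.00). *Irs3*, an insulin receptor substrate present in rodents, was 9.61, 9.72, 9.02, 9.45 and 8.83 in C and 7.8, 8.06, 8.34, 8.0 and 7.84 in T20, a difference of -1.32 ± 0.25 (2.50-fold, adjusted p = 0.00314) without overlap. *Irs1* differed by 0.44 ± 0.19 (adjusted p = 0.176). *Igfbp1*, an insulin-repressed binding protein, ranged from 8.06 to 11.68 in C and from 10.77 to 13.34 in T20, with overlap (1.27 ± 0.65, adjusted p = 0.268).

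Drug-metabolising genes changed individually. In xenobiotic oxidation 4 of 36 genes rose, against 2.26% of all genes, and 1 fell, with a median of 0.14 (8 rose with equal median and spread and 2 in the fit of T20 and C). *Fmo1*, a flavin monooxygenase, had the smallest p of the named genes. It was 10.55, 10.54, 10.69, 10.53 and 10.83 in C and 12.74, 12.4, 12.28, 13.01 and 12.93 in T20. The C livers lay close together and more than 1 log2 unit below the lowest T20 liver, and the difference was 2.04 ± 0.18 (4.13-fold, adjusted p = 8.77e-08). *Nr1i3*, which encodes the xenobiotic receptor CAR, was 9.47, 8.4, 8.76, 9.71 and 9.08 in C and 10.49, 10.04, 10.12, 11 and 10.85 in T20 (1.41 ± 0.33, adjusted p = 0.0139). The groups did not overlap. *Cyp1a2*, a caffeine-oxidising cytochrome P450 of pericentral hepatocytes, was 13.06 to 13.74 in C and 13.67 to 14.59 in T20 (0.76 ± 0.16, adjusted p = 0.00737), and *Cyp2d4* rose by 0.46 ± 0.12 (adjusted p = 0.0232). The adjusted p of *Cyp1a2* was 0.0645 in the fit of T20 and C, and *Cyp2d4* was lost without T20 replicates 1, 3 or 5 or C replicates 1 or 5 (up to 0.0681). *Cyp3a9* differed by 1.27 ± 0.46 (adjusted p = 0.103).

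In conjugation and transport 2 of 26 genes rose, against 2.26% of all genes (median 0.14; 5 with equal median and spread). *Sult1c2*, a sulfotransferase, was 7.64, 6.56, 7.22, 8.5 and 8.03 in C and 9.9, 10.37, 8.66, 9.4 and 9.17 in T20 (1.91 ± 0.39, adjusted p = 0.00486). The nearest livers of the groups were C replicate 4 and T20 replicate 3. *Acsm3*, a medium-chain acyl-CoA synthetase, was 6.12, 7.59, 7.96, 6.24 and 5.79 in C and 8.29, 9.59, 8.5, 8.43 and 9.4 in T20 (2.10 ± 0.57, adjusted p = 0.0324). Its C mean lay below the filter level and its call was lost without any one of T20 replicates 2 and 5 and C replicates 1, 4 and 5 (adjusted p up to 0.0899). In the glutathione and NRF2 list 2 of 32 rose, against 2.26% of all genes. They were *Gstm7* and *Gstm2*, both glutathione transferases. The list median was -0.03 (with equal median and spread 5 rose and the median was 0.18). *Gstm7* was 11.22 to 11.5 in C and 11.74 to 12.38 in T20 (0.79 ± 0.15, adjusted p = 0.00247). *Gstm2* was 12.87 to 13.93 in C and 14.18 to 14.48 in T20 (0.81 ± 0.20, adjusted p = 0.0197; lost without T20 replicate 1 or C replicate 1, up to 0.0669). Members of the mu class of glutathione transferases are close in sequence, and their probe sets may share signal.

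Hepatocytes next to the central vein and next to the portal tract carry different enzymes. Of 16 pericentral markers 5 rose, against 2.26% of all genes, and 0 fell, and 15 had a difference above 0 (median 0.32). *Slc1a2*, a glutamate transporter confined to the pericentral rim, was 7.26, 7.34, 6.71, 6.95 and 6.71 in C and 9.68, 8.39, 8.37, 8.46 and 8.52 in T20. T20 replicate 1 stood above the other T20 livers, and without it the difference was 1.44. With all livers it was 1.69 ± 0.23 (adjusted p = 6.5e-05), from a C mean below the filter level. *Oat*, ornithine aminotransferase, was 13.21, 13.3, 12.81, 13.23 and 13.07 in C and 14.77, 14.09, 13.96, 13.68 and 14.58 in T20 (1.09 ± 0.23, adjusted p = 0.00771). *Slc13a3*, a dicarboxylate carrier, rose by 0.95 ± 0.18 (adjusted p = 0.00314; 0.0621 in the fit of T20 and C) and *Gulo*, the last enzyme of vitamin C synthesis, by 0.30 ± 0.08 (adjusted p = 0.028). *Gulo* was lost without T20 replicate 1 or C replicates 2, 3 or 4 (up to 0.0902).

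*Glul*, glutamine synthetase and the classical pericentral marker, differed by 0.24 ± 0.12 (adjusted p = 0.257), *Cyp2e1* by 0.25 ± 0.13 (adjusted p = 0.302) and *Tbx3* by 0.34 ± 0.11 (adjusted p = 0.0596). The list had 4 genes higher without T20 replicate 1, C replicate 2 or C replicate 3, 7 with equal median and spread and 2 in the fit of T20 and C. The periportal list had 0 of 17 genes passing by limma, with 3 at an unadjusted p under 0.05, against 21.6% of all genes, and a median of 0.01. In RNA from whole liver, fewer cells of a type and less RNA per cell cannot be told apart.

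Amino acid breakdown and the urea cycle had 3 of 49 genes higher, against 2.26% of all genes, and 0 lower (median 0.13; 10 higher with equal median and spread, 1 in the fit of T20 and C). Besides *Oat* they were *Hpd* of tyrosine breakdown, at 14.94 to 15.18 in C and 15.27 to 15.51 in T20 (0.35 ± 0.07, adjusted p = 0.00486; 0.0581 in the fit of T20 and C), and *Gpt*, alanine aminotransferase. *Gpt* was 10.9, 11.79, 11.49, 12.12 and 11.17 in C and 12.41, 12.49, 12.25, 12.33 and 12.18 in T20 (0.84 ± 0.22, adjusted p = 0.0282), with the T20 livers closely grouped above a spread-out C group. It was lost without T20 replicates 1 or 2 or C replicates 1, 3 or 5 (up to 0.0875). *Sds*, serine dehydratase, differed by 1.71 ± 0.66 with overlap (adjusted p = 0.135).

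Of 23 genes of methionine, one-carbon and sulfur metabolism 4 rose, against 2.26% of all genes, and 0 fell (median 0.09; 8 higher with equal median and spread, 2 after quantile normalization, with no filter or without T20 replicate 1, 1 in the fit of T20 and C). *Inmt*, a methyltransferase for indoles and amines, was 10.03, 8.82, 8.61, 10.46 and 9.21 in C and 13.09, 10.97, 11.6, 10.26 and 11.61 in T20. T20 replicate 4 lay below C replicate 4, and the other T20 livers were above all C livers (2.08 ± 0.45, 4.22-fold, adjusted p = 0.00743). *Mat2a*, a subunit that makes S-adenosylmethionine, was 10.34, 9.53, 9.68, 9.55 and 9.63 in C and 10.38, 11.07, 10.57, 10.97 and 10.1 in T20 (0.87 ± 0.18, adjusted p = 0.00563). A second probe set gave 0.60 ± 0.19 (adjusted p = 0.0661). From the T20 and C arrays alone the adjusted p was 0.064 for *Inmt* and 0.0645 for *Mat2a*. *Gnmt*, which uses up S-adenosylmethionine, differed by 0.53 ± 0.15 (adjusted p = 0.0471) and *Cdo1*, which commits cysteine to taurine, by 0.35 ± 0.09 (adjusted p = 0.0197). *Gnmt* was lost without any one of 8 arrays (up to 0.141) and *Cdo1* without T20 replicate 1 (0.0619).

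The amino acid response driven by ATF4 had 2 of 29 genes lower, against 2.6% of all genes, and 0 higher (median -0.06). *Nupr1*, a stress-induced nuclear protein, differed by -0.60 ± 0.17 and glycyl-tRNA synthetase *Gars1* by -0.41 ± 0.12 (adjusted p = 0.0375 and 0.0392). Both were lost without any one of 7 arrays (up to 0.0913 and 0.106). *Atf4* itself differed by -0.34 ± 0.19 and *Fgf21*, a hormone raised by low protein intake, by -0.89 ± 0.39 (adjusted p = 0.323 and 0.183).

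Acute phase and iron genes gave 4 of 46 higher, against 2.26% of all genes, and 0 lower (median 0.01). *Orm1*, orosomucoid, was 13.72 to 14.38 in C and 14.37 to 14.98 in T20, with the ranges just meeting (0.73 ± 0.16, adjusted p = 0.00863). *A2m*, alpha-2-macroglobulin, was 7.82, 8.19, 8.6, 8.25 and 9.57 in C and 10.21, 10.62, 8.8, 10.94 and 9.97 in T20 (1.62 ± 0.37, adjusted p = 0.0109; 0.0708 in the fit of T20 and C). C replicate 5 lay above T20 replicate 3, the only crossing. The other members that rose were *Hfe* and *Cd14*, at 0.30 ± 0.08 and 0.73 ± 0.21 (adjusted p = 0.0232 and 0.0404), lost without any one of 5 and 7 arrays (up to 0.0719 and 0.103). *Hamp*, the hepcidin gene, whose hormone limits iron uptake, was 11.05, 8.1, 9.77, 11.36 and 10.12 in C and 7.72, 7.91, 7.41, 8.0 and 7.48 in T20. All T20 livers were below all C livers, but the spread in C was wide and the difference of -2.38 ± 0.87 did not pass (adjusted p = 0.111; 0.0425 in the fit of T20 and C). The list had 2 genes higher without T20 replicate 1, T20 replicate 4 or C replicate 5 and after median centring, 7 with equal median and spread and 1 in the fit of T20 and C.

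Growth-hormone-regulated and sex-biased liver genes gave 1 of 33 higher and 2 lower, near the 2.26% and 2.6% of all genes (median 0.12; equal median and spread gave 6 higher and 1 lower). *Prlr*, the prolactin receptor, was 10.41, 10.61, 10.94, 10.51 and 9.62 in C and 9.17, 8.3, 9.08, 8.41 and 9.99 in T20. T20 replicate 5 was the only T20 liver inside the C range (-1.43 ± 0.33, adjusted p = 0.0133). The call was lost in the fit of T20 and C (0.0532), and a second probe set gave -1.90 ± 0.48. The others, *Cyp2c7* at -0.38 ± 0.11 and *Akr1c15* at 0.36 ± 0.10, were lost without any one of 8 and 9 arrays (adjusted p = 0.0461 and 0.047, up to 0.11 and 0.146).

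In the clock list 2 of 17 genes fell, against 2.6% of all genes, and the list median was -0.11. *Clock* fell by 0.59 ± 0.15 and *Npas2* by 0.51 ± 0.14 (adjusted p = 0.0266 and 0.0369). Neither passed in the fit of T20 and C (adjusted p = 0.115 and 0.143). The other *Clock* probe sets differed by -0.39 ± 0.13 and -0.49 ± 0.14 (adjusted p = 0.0813 and 0.0383). T20 replicate 5 stood apart for several clock genes, and T20 replicate 4 for some. *Bmal1* was 7.73 in T20 replicate 5, against 9.59 to 9.91 in the other T20 livers and 9.75 to 10.14 in C. *Dbp* was 12.06 in T20 replicate 5 and 9.15 in T20 replicate 4, against 7.1 to 7.26 in the other T20 livers and 7.21 to 8.24 in C. *Nr1d1* was 11.61 and 10.5 in these livers, against 7.18 to 8.57 in the other T20 livers and 5.93 to 9.19 in C. Neither *Dbp* nor *Nr1d1* passed (adjusted p = 0.517 and 0.451). Without T20 replicate 5 the calls of *Clock* and *Npas2* were lost, as they were without T20 replicate 1. Leaving out C replicate 1 also ended that of *Clock* (up to 0.0871), and leaving out T20 replicate 2 or C replicates 2, 3 or 5 also ended that of *Npas2* (up to 0.0984). Times of tissue collection are not given in the sources used here, and their part in the result was not tested.

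Of 37 measured cell cycle genes 10 fell, against 2.6% of all genes, and 0 rose. The list includes *Cdkn1a*, a cyclin kinase inhibitor, which did not pass (-0.51 ± 0.43, adjusted p = 0.538). An unadjusted p under 0.05 was found in 24 of the 37, against 21.6% of all genes, and the median was -0.51. *Kif20a*, a kinesin of late mitosis, was 9.29, 9.53, 9.16, 9.51 and 8.96 in C and 8.41, 7.94, 8.73, 8.17 and 7.52 in T20. *Ccnb2*, cyclin B2, was 10.01, 10.14, 10.05, 10.44 and 10.03 in C and 9.36, 9.06, 9.55, 8.98 and 8.6 in T20. T20 replicate 5 was lowest and T20 replicate 3 highest of the T20 livers for both, and neither gene overlapped. The differences were -1.14 ± 0.19 and -1.02 ± 0.18 (adjusted p = 0.00092 and 0.00139). *Cdkn3*, a phosphatase of the cell cycle kinases, was 10.13 to 10.3 in C and 9.75, 8.92, 9.75, 8.93 and 8.55 in T20 (-1.0 ± 0.23, adjusted p = 0.013), and *Cdca3*, a mitotic entry factor, fell by 0.89 ± 0.21 (adjusted p = 0.0147; 0.0846 in the fit of T20 and C).

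**Figure D4:**
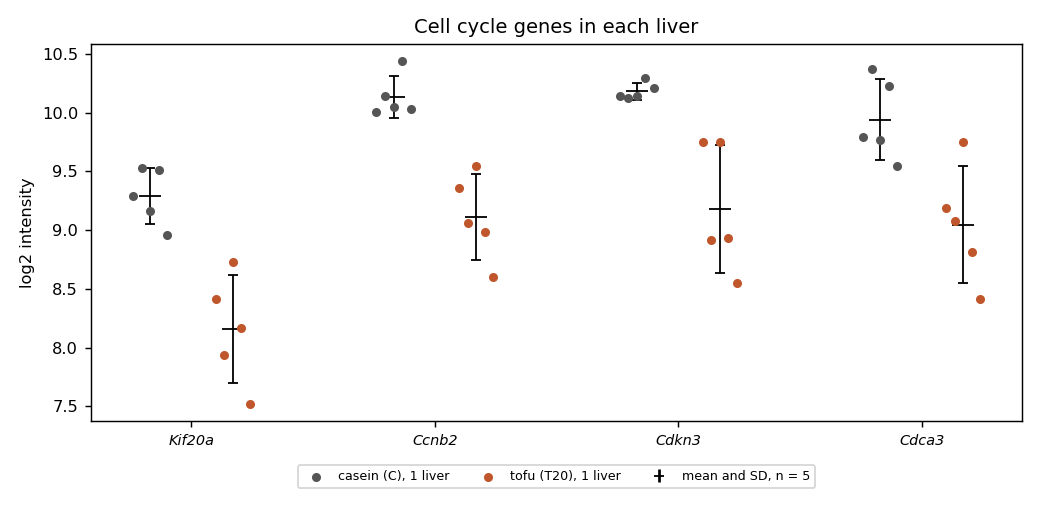
Log2 intensity (vertical axis) of 4 cell cycle genes in each C liver (grey) and T20 liver (orange), with bars for the mean and SD. *Kif20a*, *Ccnb2* and *Cdkn3* do not overlap, *Cdca3* in T20 replicate 3 at 9.75 lies above C replicate 5 at 9.55, and T20 replicate 5 is the lowest liver for all 4.

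The other 6 that fell were *Top2a* (-0.87 ± 0.23), *Plk1* (-0.56 ± 0.15), *Aurka* (-0.91 ± 0.25), *Ccna2* (-0.96 ± 0.27), *Prc1* (-0.99 ± 0.28) and *Mcm7* (-0.41 ± 0.12), with adjusted p between 0.029 and 0.0428. They encode a topoisomerase, mitotic kinases, cyclin A2, a spindle midzone protein and a replication helicase subunit. Each lost its call without at least 4 of the 10 arrays taken singly. The list count was 4 without T20 replicate 2, T20 replicate 4 or C replicate 2, 5 without C replicate 1 or C replicate 4, 6 without T20 replicate 5 or C replicate 3, 16 without T20 replicate 3, 6 with no filter on dim probe sets, 5 with array weights and 3 in the fit of T20 and C. The median stayed between -0.37 and -0.61 over the arrays left out. The summed intensity of the list was 25034 to 36747 in C and 15963 to 28727 in T20, so the groups overlapped.

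Mitotic genes are known for CCAAT boxes close to the start site, so the letters were counted in 250 bases of RefSeq promoter. Of the 63 named genes with a promoter, the 4 with at least 3 CCAAT boxes were *Kif20a*, *Ccnb2*, *Cdkn3* and *Cdca3*. Of all promoters 2.52% hold as many. These 4 are the cell cycle genes that the naming rule took by smallest p, so their count is no test. Of the 30 cell cycle genes with a promoter, 11 held at least 3, which were 6 of the 9 that fell and 5 of the 21 that did not. This split was not tested. The bases before the start of *Ccnb2*, chr8:79981659-79981808 of GRCr8 on the minus strand, show 3 in a row, in capitals.
Ccnb2: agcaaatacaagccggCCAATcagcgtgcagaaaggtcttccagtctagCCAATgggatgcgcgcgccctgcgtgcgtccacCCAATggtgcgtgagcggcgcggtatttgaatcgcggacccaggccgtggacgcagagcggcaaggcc
The search covered both strands, and a match is not evidence of binding.

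Other leading genes belonged to no list. *Pcp4l1*, which encodes a small protein, was 6.89 to 7.6 in C and 8.63 to 9.29 in T20 (1.76 ± 0.35, adjusted p = 0.00473). A second probe set of *Pcp4l1* gave 1.08 ± 0.35 (adjusted p = 0.07). *Nat8*, an acetyltransferase of cysteine conjugates, was 9.2 to 10.53 in C and 11.13 to 11.86 in T20 (1.48 ± 0.30, adjusted p = 0.0053). *LOC102554026*, an uncharacterised locus, was 8.57 to 9.34 in C and 10.37 to 10.68 in T20 (1.42 ± 0.15, adjusted p = 3.36e-06). *Enpp2*, autotaxin, which makes lysophosphatidic acid, was 11.67, 11.46, 11.06, 11.62 and 11.64 in C and 12.67, 12.31, 12.32, 13.0 and 12.87 in T20 (1.15 ± 0.16, adjusted p = 7.84e-05). *Zmym3*, a zinc finger protein, was 6.53 to 7.41 in C and 7.42 to 9.24 in T20 (1.32 ± 0.28, adjusted p = 0.00771; 0.0726 in the fit of T20 and C). None of these 5 overlapped, but the rule that named them required this. The C means of *Pcp4l1* and *Zmym3* lay below the filter level.

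Of the macrophage, endothelial and stellate lists, 1 of 13, 1 of 12 and 1 of 16 rose, against 2.26% of all genes. They were *Cd14*, which is also counted in the acute phase and iron list, *Lyve1* and *Rgs5*. At an unadjusted p under 0.05 stood 1 of 13, 2 of 12 and 7 of 16, against 21.6% of all genes. *Rgs5*, a pericyte regulator of G-protein signalling, was 7.95, 8.22, 7.93, 7.59 and 7.54 in C and 8.8, 8.25, 8.69, 8.63 and 8.68 in T20 (0.76 ± 0.13, adjusted p = 0.00103). *Lyve1* at 0.35 ± 0.10 (adjusted p = 0.0404) was lost without any one of 7 arrays (up to 0.143), and its second probe set differed by 0.10 ± 0.10 (adjusted p = 0.604). The summed marker intensity was 37281 to 41847 in C and 37906 to 51899 in T20 for macrophages, 17896 to 19223 and 19427 to 22035 for endothelium, and 25643 to 29486 and 26717 to 29116 for stellate cells. Only the endothelial sums were apart. Of 7 lymphocyte, 4 bile duct and 7 blood markers 0 passed by limma, with 1, 0 and 1 at an unadjusted p under 0.05. Their summed levels were 1493 to 1964 and 1538 to 2045, 1166 to 1441 and 1323 to 1540, and 36629 to 50114 and 29895 to 47119 in C and T20. Among 6 adipose, pancreas and gut genes *Fabp2*, the intestinal fatty acid binding protein and a PPAR-alpha target in liver, was 8.66 to 9.57 in C and lower at 7.46 to 8.39 in T20 (-0.94 ± 0.22, adjusted p = 0.0146; 0.0509 in the fit of T20 and C) and *Cela1*, a pancreatic elastase, rose by 0.68 ± 0.19 (adjusted p = 0.0351; lost without any one of 6 arrays, up to 0.127). Summed levels of that list were 3689 to 5484 in C and 4766 to 10666 in T20. The part of other cells in the results was not tested.

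The T20 livers were also set against the other diets, with isoflavone matched in CI and SI. These comparisons share the 5 T20 arrays with the one above. Against CI, casein with isoflavone at the T20 level, 394 probe sets (2.12%) differed, 201 (1.08%) higher and 193 (1.04%) lower; median centring gave 245 and 110, and equal median and spread 332 and 161. Over genes, 2.25% differed. *Pnpla3* differed by -4.36 ± 0.47, *Me1* by -1.59 ± 0.19, *Fmo1* by 1.97 ± 0.18, *Abcg8* by 2.56 ± 0.42 and *Abcg5* by 2.13 ± 0.35 (adjusted p = 3.84e-06, 1.09e-05, 2.01e-07, 0.000846 and 0.000918). *Inmt* rose by 2.02 ± 0.45 (adjusted p = 0.0131; lost without T20 replicate 1 or CI replicate 4, up to 0.0584), and *Fasn* and *Cyp7a1*, at -1.77 ± 0.47 and 2.20 ± 0.59 (adjusted p = 0.0414 and 0.0445), were lost without any one of 8 and 9 arrays (up to 0.114 and 0.133). All 3 were also lost when just the T20 and CI arrays were fitted (0.101, 0.0701 and 0.163). In fatty acid synthesis 6 of 21 fell, against 0.841% of all genes lower, and 8 of 16 pericentral genes rose, against 1.41% higher. Of the 6, *Me1*, *Acaca* and *Pgd* passed in the fit of T20 and CI, and *Fasn*, *Acly* and *Acacb* did not (adjusted p = 0.0669 for *Acly* and 0.0693 for *Acacb*). *Acly* and *Acacb* were also lost without single arrays (up to 0.0647 and 0.105). Of the pericentral genes, *Slc1a2*, *Cyp1a2* and *Slc13a3* passed in that fit, and *Oat* (0.134) and *Cyp7a1* did not. In the same comparison 8 of 13 macrophage markers (median 0.38) and 6 of 12 endothelial markers (median 0.20) had an unadjusted p under 0.05, against 16.7% of all genes. Of these markers 1 and 0 passed by limma, and their part in the result was not tested. In the cell cycle list 0 of 37 passed by limma, with 10 at an unadjusted p under 0.05 (16.7% of all genes) and a median of -0.33. Cyclin B2 was 9.56 ± 0.23 (SD) in CI, between 10.13 ± 0.18 in C and 9.11 ± 0.36 in T20. *Hamp*, 12.2 ± 2.27 (SD) in CI, differed by -4.50 ± 0.87 (adjusted p = 0.00456), and *Sult2a6*, a hydroxysteroid sulfotransferase, by -1.72 ± 0.41 (adjusted p = 0.0217; lost without T20 replicates 3 or 4 or CI replicates 2 or 4, up to 0.0706, and in the fit of those 10 arrays at 0.0514).

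Against SI, soy protein with matched isoflavone, 653 probe sets (3.51%) differed, 304 (1.63%) higher and 349 (1.87%) lower; median centring gave 144 and 649, and centring on the tested probe sets 254 and 462. Over genes, 4.03% differed, 1.73% higher and 2.3% lower. *Pnpla3*, *Me1* and *Fmo1* had differences of 0.03 ± 0.47, 0.26 ± 0.19 and 0.00 ± 0.18 (adjusted p = 0.985, 0.479 and 0.995). *Abcg8* was higher in T20 than in SI by 1.63 ± 0.42 (adjusted p = 0.0261; lost without T20 replicates 1, 3 or 5 or SI replicates 1 or 2, up to 0.0809), and *Abcg5* by 1.21 ± 0.35 (adjusted p = 0.0502, which passed without T20 replicate 2 at 0.0326). *Inmt*, *Oat*, *Alox15* (a lipoxygenase) and *Acsl4* (an arachidonate-preferring acyl-CoA synthetase) were higher in T20 by 3.17 ± 0.45, 1.93 ± 0.23, 1.89 ± 0.31 and 1.24 ± 0.18 (adjusted p = 0.00024, 3.96e-05, 0.00114 and 0.000266). *Hamp*, *A2m*, *Aldh1b1* (a mitochondrial aldehyde dehydrogenase) and *Mat2a* were lower, at -5.23 ± 0.87, -1.87 ± 0.37, -1.64 ± 0.19 and -1.48 ± 0.18 (adjusted p = 0.00114, 0.00568, 3.96e-05 and 3.96e-05). When the fit held just the T20 and SI arrays, *Alox15* and *A2m* did not pass (adjusted p = 0.0621 for both), nor did *Abcg8* (0.0802). *Cdkn1a*, a cyclin kinase inhibitor, differed by -1.52 ± 0.43 (adjusted p = 0.0433; lost without any one of 7 arrays, up to 0.113, and 0.0869 in the fit of T20 and SI). In fatty acid synthesis 5 of 21 genes were lower than in SI (2.3% of all genes), *Acaca* among them at -0.74 ± 0.18 (adjusted p = 0.0209; lost without T20 replicates 1 or 5 or SI replicates 1 or 2, up to 0.0892, and at 0.109 in the fit of T20 and SI). In the cell cycle list 4 of 37 were lower, against 2.3% of all genes, and the inhibitor *Cdkn1a* was among the 4.

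**Figure D5:**
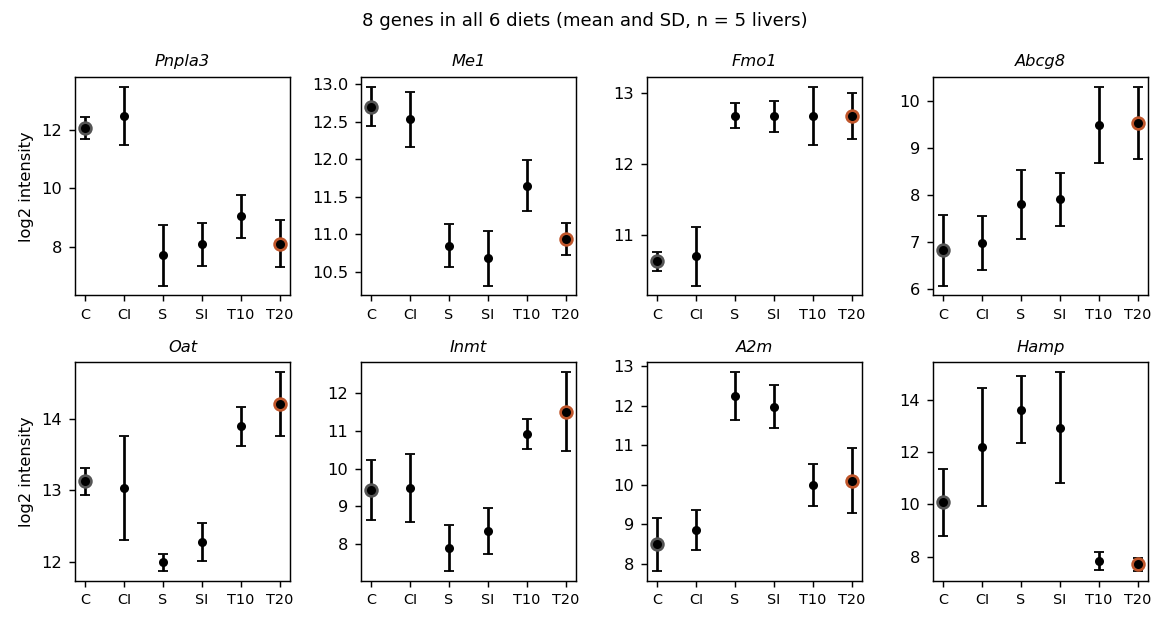
Mean log2 intensity (vertical axes, which differ between panels) of 8 genes in the 6 diets, with bars for the SD over 5 livers. C is the larger grey point and T20 the larger orange point. *Pnpla3*, *Me1* and *Fmo1* are at like levels in S, SI and T20, *Abcg8*, *Oat* and *Inmt* are highest in the tofu diets T10 and T20, *A2m* is highest in S and SI, and *Hamp* is lowest in T10 and T20, at 7.82 ± 0.34 and 7.70 ± 0.25.

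Against T10, where tofu gave 100 g/kg of the protein, 0 of 18625 probe sets differed by limma, and 1318 (7.08%) had an unadjusted p under 0.05. The smallest p-values belonged to *Hectd2*, a ubiquitin ligase gene, *Gpt* and *Rgs5*, each higher in T20, by 1.13 ± 0.20, 1.17 ± 0.22 and 0.60 ± 0.13 (adjusted p = 0.0774, 0.115 and 0.282); *Hectd2* passed without T10 replicate 2 (0.0382). *Pnpla3* and *Me1* differed by -0.93 ± 0.47 and -0.71 ± 0.19 and *Abcg8* by 0.05 ± 0.42 (adjusted p = 0.721, 0.353 and 0.988).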

How the data were processed

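Liver RNA from 30 rats, 5 on each of 6 diets, was measured on Affymetrix rat arrays, 1 per animal. Per the labels, the authors normalized with the SuperNORM data service, and the deposited values are intensities on a linear scale; the return to that scale and its reference level: not given in the sources used here. In the labels, the normalization parameters of C replicate 3 repeat in CI replicate 3. Total counts do not apply, and the number of arrays limits precision.

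Intensities under 16 were set to 16 and log2 taken. Of 31099 probe sets, 57 controls were left out, and 18625 with a mean log2 intensity above the 40th percentile (7.388) were tested. A limma 3.58.1 model held the 6 diet means over 30 arrays (R 4.3.3; empirical Bayes with a variance trend, 24 residual degrees of freedom, two-sided), with Benjamini-Hochberg adjustment; every adjusted p comes from this fit or a named alternative. Scripts were tested on simulated data. One symbol was annotated for 20832 probe sets, several for 436 and none for 9831; promoters came from RefSeq (GRCr8), matching 63 of 78 named genes.

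Named genes were the 12 most raised and 12 most lowered called genes without overlap, up to 4 called members per list by smallest p, and a fixed set; against CI and SI the 5 most raised and 5 most lowered, against T10 the 3 of smallest p. Other genes named in the text were chosen after their values were seen. The comparison, gene lists and genes were chosen with earlier results of these data known. Alternatives covered scaling, filter, variance model, arrays in the fit, a replicate block, and each array left out.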

Additional observations from a re-analysis of the deposited data

Results flagged for a closer look

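Within groups of 5, a liver was singled out when its gap to the nearest other liver exceeded 0.71 of the group's range, which chance gives in about 1 of 20 groups; 9 of 212 sets of 5 livers over 106 genes did. In T20, *Abcg8* was lowest in replicate 2 at 8.23, against 9.69 to 10.27 in the other 4, and *Slc1a2* was highest in replicate 1 at 9.68, against 8.37 to 8.52. In T20 replicate 5, *Cpt1a* was 14.16 against 12.77 to 13.11 and *Bmal1*, a clock activator, was 7.73 against 9.59 to 9.91. *Onecut1*, a hepatocyte transcription factor, was 11.16 in T20 replicate 4 against 8.69 to 9.07. Among the C livers, replicate 1 was highest for *Elovl6* at 10.67 and for *Mat2a* at 10.34, replicate 2 was highest for *Hpd* at 15.18, and replicate 5 was lowest for *Slc6a9*, a glycine transporter, at 10.89. The differences of *Abcg8*, *Slc1a2*, *Elovl6*, *Mat2a* and *Hpd* between T20 and C passed whichever single array was left out, and those of *Cpt1a*, *Bmal1* and *Onecut1* did not pass with all arrays.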

How the results depend on the processing

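Of the 68 named genes that passed in T20 against C, 48 passed whichever single array was left out, 20 were lost without at least 1, and 35 passed under all 23 alternatives; no named difference changed sign with a call. The number of probe sets called against C was 389 to 1029 over the single arrays left out, 213 in the fit of T20 and C, 383 without C replicate 3 and CI replicate 3, and 839 in full. Against CI it was 176 to 388 (260 without T20 replicate 1, 176 without CI replicate 4), with 131 in the fit of the arrays compared. Against SI it was 228 to 1026 (268 without T20 replicate 1, 382 without T20 replicate 2, 228, 1026, 432 and 397 without SI replicates 2, 3, 4 and 5), with 39 in the fit of the arrays compared. Against T10 it was 0 to 1, with 1 in the fit of those arrays, without T20 replicate 5 or without T10 replicate 2. The deviations of same-numbered T20 and C arrays correlated between 0.01 and 0.093, all above the mean of -0.013 for differently numbered arrays. No T20 array correlated best with the C array of its own number, and the best match of each C array was not computed. The main fit did not use the numbers as a pairing, and whether they mark a shared step was not tested. A replicate block gave 1120 (817 of the 839 among them), 541, 970 and 0 called against C, CI, SI and T10. Centring on the tested probe sets, chosen after seeing the data, gave 485 higher and 368 lower against C.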

Other observations

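Outside the lists, several pairs of related genes moved, named here after their values were seen. *Hsd11b1*, which regenerates active glucocorticoid in the liver, was 14.28, 13.77, 14, 14.09 and 14.43 in C and 15.01, 15.13, 14.77, 14.71 and 14.73 in T20 (0.76 ± 0.10, adjusted p = 7.84e-05 by limma). *Hsd11b2*, which inactivates glucocorticoid, was 9.75, 9.96, 9.73, 9.27 and 9.28 in C and 8.86, 8.95, 9.1, 8.57 and 8.71 in T20 (-0.76 ± 0.15, adjusted p = 0.00458). All T20 livers lay above C for the first and below C for the second. Against CI, *Hsd11b1* differed by 0.22 (adjusted p = 0.287) and *Hsd11b2* by -0.73 (adjusted p = 0.00815).

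The polyamine acetyltransferase *Sat1* rose by 0.64 ± 0.13 and its relative *Sat2* by 0.91 ± 0.12 (adjusted p = 0.00582 and 6.88e-05), with *Sat2* at 8.74 to 9.03 in C and 9.65 to 10.03 in T20. *Ethe1*, a mitochondrial enzyme of sulfide oxidation, rose by 0.87 ± 0.21, and *Car3*, an abundant carbonic anhydrase, by 0.55 ± 0.09 (adjusted p = 0.0146 and 0.00118). *Spc24* of the kinetochore differed by -1.09 ± 0.26, the condensin gene *Ncapd2* by -0.58 ± 0.11 and beta-tubulin *Tubb5* by -0.65 ± 0.14 (adjusted p = 0.0155, 0.00213 and 0.00623). In the fit of T20 and C alone *Sat1*, *Car3* and *Spc24* did not pass (adjusted p = 0.0572, 0.0597 and 0.0653).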
